A study of Rattus norvegicus with 2 samples.

Results

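The mitochondrial ribosomal protein genes, which carry the symbols Mrpl (large subunit) and Mrps (small subunit), were described in primary rat hepatocytes given triiodothyronine (T3), the active thyroid hormone. Members were the probe sets of the full deposited table with a single gene symbol that starts with Mrpl or Mrps and a number. This rule found 90 of 31038 probe sets, which stand for 65 of the 13510 genes named by a single symbol: 56 probe sets for 41 large subunit genes and 34 probe sets for 24 small subunit genes. The treated culture received 1 nM T3 for 24 h, and the control culture received none. Per the labels, both were hepatocytes of male SD rats, grown on collagen-coated plates in a basal hepatocyte medium with growth factors, and measured on Affymetrix rat genome arrays. Whether cells of several animals were pooled is not given in the sources used here. Each condition has 1 array, so there is no replicate, no test was made and no p-value is given for any difference.

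Mitochondria hold their own ribosomes, which translate only the few messages of the mitochondrial genome, all of them for subunits of the respiratory chain and ATP synthase. The ribosomal RNAs come from mitochondrial DNA, while every protein of both subunits is encoded in the nucleus, made in the cytosol and imported. Some of these proteins descend from bacterial ribosomal proteins and others have no bacterial counterpart. Thyroid hormone is known as a stimulus of mitochondrial respiration in the liver.

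The deposited value of a probe set is its MAS5 signal, an intensity on a linear scale, together with a call of whether it was detected (present) or not (absent). The arrays called 17264 probe sets present with T3 and 17592 in control, and 16524 on both. The hepatocyte markers with a named probe set, 7 of 8, were all present on both arrays, with ratios from 0.868 for Alb (3449 with T3 and 3972 in control) to 1.02 for Fgb (702 with T3 and 689 in control). Bile duct markers were present too, 3 of 3, with a summed signal of 2457 with T3 and 2805 in control. Of the 5 stellate cell and fibroblast markers, 5 were present with T3 and 4 in control, and their summed signal was 1614 with T3 and 1793 in control. Most of that sum is Vim, at 1418 with T3 and 1621 in control, whereas Acta2 (124 with T3 and 102 in control) and Des (56.6 with T3 and 46.4 in control) were on the other side. The 3 endothelial markers with a probe set were absent on both arrays, and 1 of 4 leukocyte markers was present on each. Whether these signals come from other cells was not tested, and neither was a part of such cells in the values below. In such bulk RNA, fewer cells of a type and less RNA per cell cannot be told apart.

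Signals of the mitochondrial ribosomal protein genes were nearly equal in both cultures, with a small excess on the T3 side in most of them. Of the 90 probe sets, 82 were present on both arrays, 2 on the control array only and 6 on neither. The 2 present in control only were a dim Mrpl12 probe set, at 16.8 with T3 and 20.1 in control, and a dim Mrps24 probe set, at 6.13 with T3 and 8.61 in control. The 6 that were present on neither were additional probe sets of Mrpl12, Mrpl15, Mrpl37, Mrps15, Mrps26 and Mrps27. All 65 genes had a probe set present on both arrays, and each gene is given below by the present probe set with the highest mean signal. These ran from 76.0 to 1128 with T3, with a median of 269.6, and from 70.8 to 1091 in control, with a median of 275.1.

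**Figure D1:**
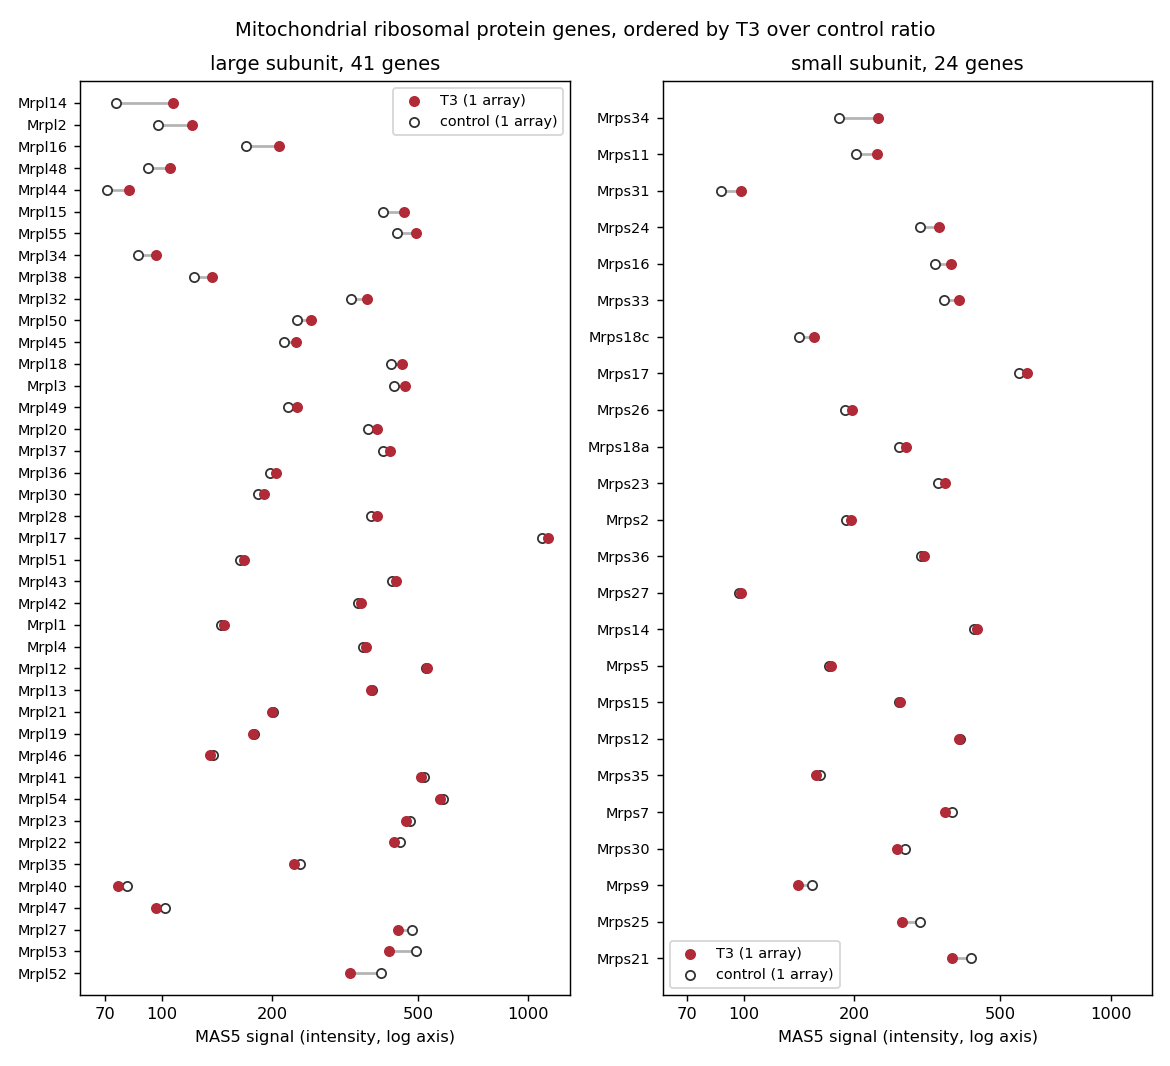
MAS5 signal of each mitochondrial ribosomal protein gene on the T3 array (filled points) and the control array (open points), on a log axis, with 41 large subunit genes in one panel and 24 small subunit genes in the other, ordered by the ratio of T3 to control. The points of most genes lie close together. The widest separation is at Mrpl14, with 107 with T3 and 75.1 in control.

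No member probe set passed 1.5-fold in either direction while present on the brighter array. Of the 18332 probe sets on the array that were detected in at least 1 culture, 4.11% did so higher and 2.65% lower. Of the 8262 detected in both cultures whose geometric mean signal reached the median of 104, 0.399% were past 1.5-fold higher and 0.182% lower. The 62 members in this signal range had 0 in each direction, a share near that background. The authors' deposited tables of probe sets selected at 1.5-fold and 2-fold held 0 of the 90.

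At the smaller limit of 1.2-fold, 7 of the 84 detected members were higher with T3 (8.33%) and 4 were lower (4.76%). The background over all detected probe sets was 13.1% higher and 11.1% lower. At or above the median signal, 3 of 62 members were higher (4.84%) and 1 was lower (1.61%), beside a background of 4.18% higher and 3.87% lower. Both shares were below the background over all detected probe sets, but the members were brighter. Their median signal with T3 was 207.9, against 87.4 for all detected probe sets. At or above the median signal, counts of 3 and 1 in 62 are too small to set the members apart from the background. A bin of like signal gives another yardstick. When all probe sets detected in both cultures were split into 5 bins of signal, 4 of the 82 members (4.88%) lay outside the central 95% of ratios in their bin, where 5% of all probe sets lie by construction. These 4 were probe sets of Mrpl14 and Mrps34 above the range and of Mrpl52 and Mrpl53 below it.

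**Figure D2:**
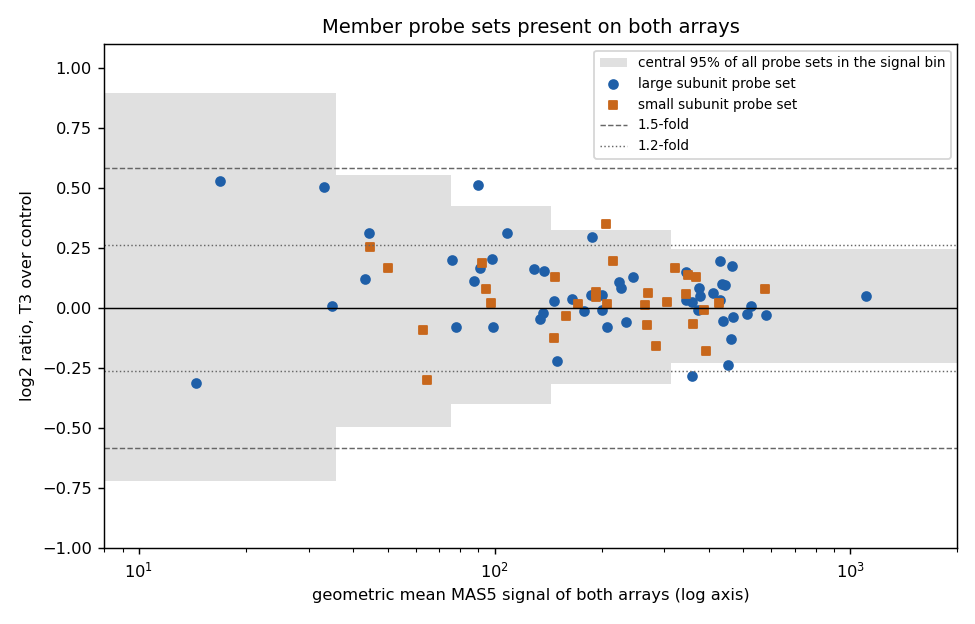
Log2 ratio of T3 over control for the 82 member probe sets present on both arrays, plotted against the geometric mean MAS5 signal on a log axis; circles are large subunit and squares small subunit probe sets. Grey steps mark the central 95% of all probe sets in 5 signal bins, dashed and dotted lines 1.5-fold and 1.2-fold. No point reaches 1.5-fold, and 4 lie outside the grey range.

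The direction was uneven. Of the 65 genes, 44 had a higher signal with T3 and 21 a lower one, so that 67.7% lay above a log2 ratio of 0. Of all 9670 genes chosen by the same rule, 50.1% lay above 0, and of those present on both arrays at or above the median signal 47.8%. The median log2 ratio of the member genes was 0.05, beside 0.00 over all genes. Of the 57 member genes at or above the median signal, 38 (66.7%) lay above 0. Their median was 0.04, beside -0.01 over all genes in that range. Member probe sets present on both arrays had a median of 0.14 below the median signal and 0.03 at or above it. The middle 50% of member genes lay between -0.02 and 0.13 in log2 ratio. Of the 65 genes, 60 were within 1.2-fold and 46 within 1.1-fold. Of all 9670 genes, 81.4% were within 1.2-fold and 5702 within 1.1-fold. At or above the median signal, 43 of 57 member genes were within 1.1-fold, beside 4198 of all 5736 genes in that range. At or above the median signal, 53 of 57 member genes (93.0%) were within 1.2-fold, near the 93.2% of all genes in that range. The spread between cultures is unknown, so whether the shift exceeds it cannot be said from 1 array a condition.

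Genes whose other probe sets were also present give a second reading of the same ratio. In 14 genes at least 2 probe sets were present on both arrays. All probe sets of a gene lay on the same side of 0 in 7 of these genes and on both sides in the other 7. The highest and lowest log2 ratio of a gene differed by a median of 0.21, against a median absolute log2 ratio of 0.07 for the 65 genes. Over all 2270 genes with several such probe sets, the median difference was 0.20, and 51.7% had all probe sets on the same side. The difference between probe sets of a gene was larger than the median absolute log2 ratio between the cultures, but the measures are unlike. The former spans all probe sets of a gene present on both arrays, dim ones included, and the latter only the brightest. For the brightest probe sets of the 14 genes the median absolute log2 ratio was 0.08.

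**Figure D3:**
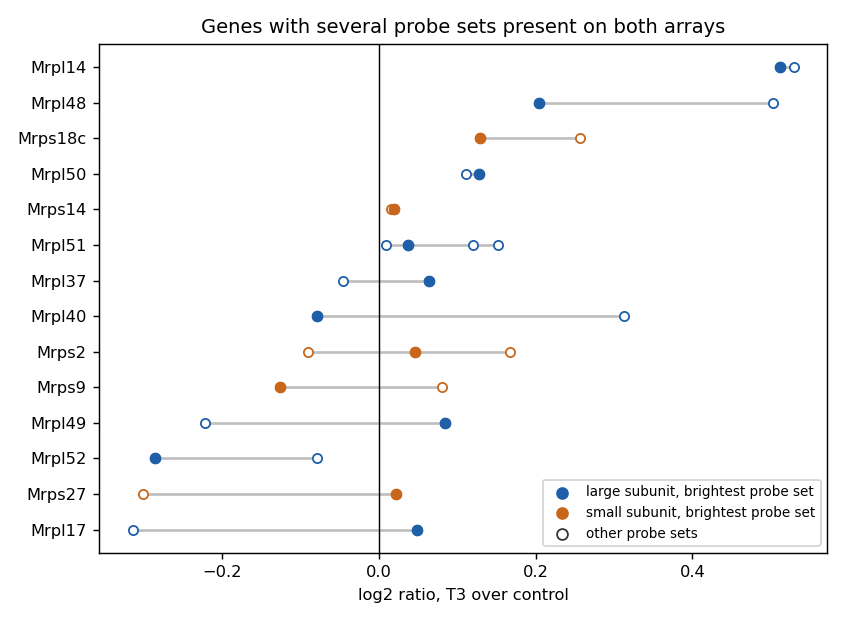
Log2 ratio of T3 over control for every probe set of the 14 genes with at least 2 probe sets present on both arrays; filled points are the brightest probe set, open points the others, blue large subunit and orange small subunit. Mrpl14 has both points above 0.5, whereas the points of Mrpl17, Mrpl40, Mrpl49 and Mrps27 fall on both sides of 0.

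Mrpl14 had the highest ratio of the family, and its probe sets gave nearly the same value. It encodes a conserved protein of the large subunit, on the face that meets the small subunit. Its brighter probe set read 107 with T3 and 75.1 in control, a ratio of 1.43, above the central 95% of its signal bin, 0.757 to 1.34. Its dimmer one read 20.3 with T3 and 14.1 in control, a ratio of 1.44. That ratio lay inside the central 95% of the dimmest signal bin, 0.606 to 1.86. Both probe sets were read on the same arrays, so they are not replicates. The gene was the 1 of 14 whose probe sets were all past 1.2-fold higher, and none was so lower. Over all genes with several such probe sets this was the case for 26 of 2270 (1.15%) higher and 22 (0.969%) lower. Mrpl48 also lay above 0 in both of its probe sets, with 105 with T3 and 91.6 in control in the brighter one, a ratio of 1.15. Its dimmer probe set read 39.5 with T3 and 27.9 in control, a ratio of 1.42, also inside the central 95% of the dimmest signal bin.

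Among genes at or above the median signal, the highest ratios were those of Mrps34, Mrpl2, Mrpl16, Mrps11, Mrpl15 and Mrpl55. Mrps34, a small subunit protein without a bacterial counterpart that is needed for a stable small subunit, stood at 232 with T3 and 182 in control, a ratio of 1.28. Mrpl2, a conserved protein that lies near the peptidyl transferase centre, stood at 121 with T3 and 97.4 in control, a ratio of 1.24. Mrpl16, also conserved, had 208 with T3 and 170 in control, a ratio of 1.23. These 3 were past 1.2-fold, and each has a single probe set. Mrps11, a conserved protein of the small subunit platform, had 231 with T3 and 201 in control. Mrpl15 had 459 with T3 and 401 in control, and Mrpl55 had 493 with T3 and 437 in control, ratios of 1.14 and 1.13. The dimmer Mrpl15 probe set was absent on both arrays.

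The lowest ratios in the same signal range belonged to Mrpl52, Mrpl53, Mrps21, Mrps25, Mrpl27 and Mrps9. Mrpl52, a mitochondria-specific protein, read 325 with T3 and 397 in control, a ratio of 0.821, while its other probe set read 201 with T3 and 213 in control, a ratio of 0.947. Mrpl53 read 418 with T3 and 492 in control, a ratio of 0.849. Mrps21, a homologue of a small bacterial protein, read 368 with T3 and 417 in control, a ratio of 0.883. Mrpl52 was the only 1 of the 65 genes past 1.2-fold lower in its brightest probe set. Mrps25 was at 269.6 with T3 and 301.0 in control. Mrpl27, whose bacterial homologue reaches into the peptidyl transferase centre, was at 442 with T3 and 483 in control. Mrps9 had 140.2 with T3 and 153 in control, and its other probe set went the other way, with 97.2 with T3 and 91.9 in control.

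The large and the small subunit did not separate. Of the 41 large subunit genes, 27 lay above 0 and 14 below, with 3 past 1.2-fold higher and 1 lower. Of all 9670 genes, 10.2% were past 1.2-fold higher and 7.54% lower, and of the 5736 brighter ones 3.96% higher and 2.88% lower. Of the 24 small subunit genes, 17 lay above 0 and 7 below, with 1 past 1.2-fold higher and 0 lower. The median log2 ratio was 0.05 in the large and 0.04 in the small subunit, a difference of 0.01. The ranges overlapped almost entirely, from -0.29 to 0.51 in the large subunit and from -0.18 to 0.35 in the small. This is a description of genes on these arrays, with no test between the subunits.

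Symbols and place in the ribosome do not match for every gene. In mammals the products of Mrps30 and Mrps18a were found in the large subunit despite their names, and the gene the file calls Mrps36 is now named Kgd4, since its product belongs to the 2-oxoglutarate dehydrogenase complex. Mrps30 had 262 with T3 and 275 in control, Mrps18a 276 with T3 and 264 in control, and Mrps36 309 with T3 and 303 in control. With the first 2 counted in the large subunit and Mrps36 left out, 28 of 43 large and 15 of 21 small subunit genes lay above 0. The medians were then 0.05 for both, and their difference was 0.00. Members with and without a bacterial homologue had similar medians. Of 39 conserved genes 27 lay above 0, with a median of 0.05, and of 25 mitochondria-specific genes, with Mrps36 left out, 16 lay above 0, with a median of 0.04.

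Further members were set by role. Mrpl12, a stalk protein that binds translation factors and is also known to bind the mitochondrial RNA polymerase, had 529 with T3 and 526 in control in its brightest probe set. Mrpl1, the protein of the mobile L1 stalk, had 148 with T3 and 145 in control. Mrpl3, a conserved protein close to the peptidyl transferase centre, had 459.5 with T3 and 429.6 in control. Mrpl45, which anchors the ribosome to the inner membrane at the exit tunnel, had 232 with T3 and 215 in control. Mrpl44, a protein with a ribonuclease III fold, had 81.3 with T3 and 70.8 in control, a ratio of 1.15.

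In the small subunit, Mrps12, the conserved protein of the decoding centre, had 386 with T3 and 388 in control. Mrps7, which binds the head of the small ribosomal RNA, had 354 with T3 and 370.2 in control. Of the Mrps18 paralogues, Mrps18c had 155 with T3 and 141 in control, and its other probe set 48.7 with T3 and 40.8 in control, ratios of 1.09 and 1.19. The probe sets that list Mrps18b and Mrpl10 name other genes too, and no value is given for these genes. Mrps17 and Mrps14 were likewise near equal: Mrps17 had 593 with T3 and 561 in control, and Mrps14 had 431 with T3 and 425 in control.

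Of the remaining named large subunit genes, Mrpl17 had 1128 with T3 and 1091 in control, and its dim probe set 13.0 with T3 and 16.2 in control, so its direction depends on the probe set. Mrpl54 had 575 with T3 and 586 in control. The file writes 3 further symbols in lower case, which leaves them outside the rule. Of these, mrpl11, the protein at the base of the stalk where translation factors bind, had 341 with T3 and 295 in control, a ratio of 1.16. The other two were near equal, with mrpl24 at 389 with T3 and 387 in control, and mrpl9 at 191 with T3 and 201 in control.

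Promoters were compared as a feature that the rule did not use. RefSeq promoters of rat assembly GRCr8, from 250 bases before to 50 after the start of transcription, were matched by gene number for 53 of the 65 genes. The letters CCGGAAG, the core recognised by ETS factors such as GABP, occurred on either strand in 16 of the 53 (30.2%) and in 11.2% of 19005 promoters of protein-coding genes. The letters AAGATGGCG of YY1 occurred in 8 (15.1%) against 2.29% of all, and the palindromic NRF1 motif, marked below in Mrpl17, in 3 (5.66%) against 1.14%. CCAAT stood in 47.2% of member promoters against 38.4% of all, and TATAAA in 13.2% against 13.1%. The DR4 motif of thyroid hormone receptors, searched as an exact direct repeat of AGGTCA, was in 0 of the 53 and in 0 of the 19005, which says only that these letters are not in the window. The ETS and YY1 letters can share AAG, but in the 53 promoters matches of different motifs overlapped in 0 cases, and a match is a description, not a binding site.

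Of members with the ETS letters, 11 of 16 lay above 0 with a median of 0.05, and 27 of the 37 without them lay above 0 with a median of 0.05. With CCAAT 21 of 25 lay above 0 with a median of 0.06, and without it 17 of 28 with a median of 0.02. The 3 with the NRF1 motif all lay above 0 with a median of 0.15, and of those without it 35 of 50 did with a median of 0.04. With the YY1 letters 6 of 8 lay above 0, and without them 32 of 45. These are descriptions with no test. The promoters of 5 genes are shown to let these letters be seen in members at both ends of the ratio. Mrpl2 is among the highest ratios, Mrpl53 and Mrpl52 are the lowest, Mrpl17 holds the NRF1 letters, and Mrps18a holds both CCAAT and the ETS letters; its YY1 letters lie outside the stretch shown. Each sequence is the strand of the gene, 5′ to 3′, is RefSeq sequence of GRCr8, and ends at the base before its outermost annotated start; capitals mark the ETS, NRF1 and CCAAT letters on either strand. They lie, in the order shown, at chr9:21834608-21834857 on the minus strand, chr4:117172793-117173042 and chr15:31852686-31852926 on the plus strand, and chr1:169575700-169575949 and chr9:22367381-22367630 on the minus strand.
Mrpl2: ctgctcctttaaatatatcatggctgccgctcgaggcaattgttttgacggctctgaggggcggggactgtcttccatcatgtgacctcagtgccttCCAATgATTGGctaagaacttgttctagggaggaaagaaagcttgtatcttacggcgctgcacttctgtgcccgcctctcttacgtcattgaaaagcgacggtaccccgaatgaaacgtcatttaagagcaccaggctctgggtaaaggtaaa
Mrpl53: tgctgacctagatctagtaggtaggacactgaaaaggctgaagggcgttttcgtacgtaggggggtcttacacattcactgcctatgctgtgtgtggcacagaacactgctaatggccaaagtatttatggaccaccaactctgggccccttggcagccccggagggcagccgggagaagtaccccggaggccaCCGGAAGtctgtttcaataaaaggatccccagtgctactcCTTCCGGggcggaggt
Mrpl52: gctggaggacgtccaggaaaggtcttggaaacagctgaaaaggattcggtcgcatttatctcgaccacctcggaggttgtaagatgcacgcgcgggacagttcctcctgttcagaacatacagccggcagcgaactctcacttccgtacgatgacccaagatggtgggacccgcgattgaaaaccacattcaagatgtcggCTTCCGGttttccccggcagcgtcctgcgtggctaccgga
Mrpl17: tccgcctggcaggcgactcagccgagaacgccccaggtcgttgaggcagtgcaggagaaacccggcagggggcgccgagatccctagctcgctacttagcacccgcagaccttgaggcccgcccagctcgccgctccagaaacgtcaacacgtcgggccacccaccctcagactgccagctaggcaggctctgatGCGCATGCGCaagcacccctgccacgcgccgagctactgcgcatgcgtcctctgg
Mrps18a: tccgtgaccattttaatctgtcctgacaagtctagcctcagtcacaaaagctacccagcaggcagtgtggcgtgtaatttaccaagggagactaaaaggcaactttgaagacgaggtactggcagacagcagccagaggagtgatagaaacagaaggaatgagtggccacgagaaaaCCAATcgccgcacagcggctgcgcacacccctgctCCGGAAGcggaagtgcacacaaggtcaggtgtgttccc

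The promoter of Mrpl53 holds the ETS letters once on each strand, and that of Mrpl2 holds CCAAT once on each strand with 1 base between them. Head-to-head neighbours were frequent. In 16 of the 53 (30.2%) another protein-coding gene starts within 1000 bases upstream on the opposite strand, against 6.99% of all protein-coding genes. Mrpl46 and Mrps11, one gene of each subunit, are such a pair with 234 bases between the starts given in the table. Their signals were 136 with T3 and 138 in control for Mrpl46, and 231 with T3 and 201 in control for Mrps11. Mrpl47 lies head to head with the complex I gene Ndufb5, which read 736 with T3 and 698 in control, while Mrpl47 read 96.3 with T3 and 102 in control. Of 12 head-to-head genes whose partner was detected, with Mrpl46 and Mrps11 counted once each, 5 had the same direction as the partner.

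Other genes of mitochondrial translation were described in the same way. Mitoribosomal proteins with other symbols had all 7 measured genes within 1.2-fold and 6 above 0, with a median of 0.09. They include Mrpl57 (142 with T3 and 129 in control), Chchd1 (378 with T3 and 345 in control) and Aurkaip1 (394 with T3 and 369 in control), while Ptcd3 had 255 with T3 and 266 in control. Mrpl58, a peptidyl-tRNA hydrolase built into the large subunit, had 281 with T3 and 277 in control. Of 18 detected genes of ribosome assembly and ribosomal RNA modification, 11 lay above 0 and 7 below, with a median of 0.06. At 1.2-fold 4 were higher and 2 lower, where 10.2% of all genes were higher and 7.54% lower. At 1.5-fold 1 was higher and 0 lower, where 2.81% of all genes were higher and 1.68% lower. At or above the median signal, the 1.5-fold shares were 0.279% higher and 0.157% lower. The list was dim, with a median signal of 73.7 with T3 and 89.9 in control, under the limit of 104. The shares of the brighter genes are therefore not of like signal. In the dimmest signal bin, 28.7% of all probe sets were past 1.2-fold higher and 20.0% lower. The list's gene past 1.5-fold was Mrm1, a methyltransferase of the large ribosomal RNA, at 15.8 with T3 and 8.40 in control. Its ratio of 1.88 lay just above the central 95% of the dimmest signal bin, 0.606 to 1.86. Its other probe set was dimmer still, at 10.9 with T3 and 4.03 in control, where it was called absent. Nsun4, which methylates the small ribosomal RNA and helps to join the subunits, was the lowest, at 78.7 with T3 and 112 in control, a ratio of 0.701, and its second probe set gave 0.687. Mterf3 had 336 with T3 and 312 in control, and Dhx30 had 199.8 with T3 and 199.0 in control.

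Translation factors had 5 of 12 genes above 0 and a median of -0.03. Tufm, the mitochondrial elongation factor Tu, had 521 with T3 and 533 in control, with ratios of 0.886 and 1.12 in its other probe sets, and Slirp, an RNA-binding protein that stabilises mitochondrial messages, 424 with T3 and 432 in control. The list ran from Mrrf, the ribosome recycling factor, with 65.4 with T3 and 73.7 in control, to Mtfmt, which formylates the initiator tRNA, with 109 with T3 and 102 in control, among genes present on both arrays. Of 16 genes that charge mitochondrial tRNAs 9 lay above 0, with a median of 0.02. Past 1.5-fold lower was 1 gene, where 1.68% of all genes were. This was the cysteinyl-tRNA synthetase gene Cars2, with 21.1 with T3, called absent, and 33.5 in control. Its ratio of 0.629 lay inside the central 95% of the dimmest signal bin, 0.606 to 1.86, and its other probe set gave 0.620. Ears2 had 44.5 with T3 and 33.5 in control, and Hars2 55.3 with T3 and 68.7 in control in its brighter probe set, with 51.0 with T3 and 48.0 in control in the other. Yars2 had 169.3 with T3 and 169.1 in control, and Gatc had 124 with T3 and 129 in control, with 71.2 with T3 and 66.2 in control in its other probe set.

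Genes that transcribe and copy mitochondrial DNA had 4 of 10 above 0 and a median of -0.06. Tfam, which packages mitochondrial DNA and starts its transcription, had 229 with T3 and 252 in control. Top1mt, the mitochondrial topoisomerase, was lowest at 61.6 with T3 and 76.2 in control, and Polrmt, the RNA polymerase, had 77.6 with T3 and 75.3 in control. Ssbp1, the single-strand binding protein, had 473 with T3 and 464 in control, and its other probe set 169 with T3 and 185 in control. Of the nuclear regulators 5 of the 8 with a probe set were detected, 1 above 0, with a median of -0.10. Gabpa, a subunit of the ETS factor GABP, had 139 with T3 and 138 in control, Yy1 603 with T3 and 617 in control, Myc 416 with T3 and 451 in control, and Pprc1 81.4 with T3 and 88.3 in control. None of these 5 was past 1.2-fold.

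Cytosolic ribosomal proteins, the counterparts that build the ribosomes of the cytosol, lay on the other side of 0. Of 62 genes 7 lay above 0 and 55 below, with a median of -0.05, beside 44 of 65 above 0 and a median of 0.05 for the mitochondrial ones. All 62 were within 1.2-fold. In the brightest of the 5 signal bins, from 313 up, 2.12% of all probe sets were past 1.2-fold higher and 1.33% lower. In that bin 44.8% of all probe sets lay above 0. Rps29 had 4237 with T3 and 4372 in control, Rps23 3787 with T3 and 3853 in control, Rpl23 2651 with T3 and 2975 in control, and Rpl10a 2352 with T3 and 2213 in control. Their median signal was 2924 with T3 and 3050.3 in control. The split of this family depended on the scaling: after quantile normalization 27 of the 62 lay above 0 with a median of 0.00, while the mitochondrial genes had 44 of 65 above 0 with a median of 0.05. After loess, which takes out a trend of the ratio with signal, 19 of the 62 lay above 0 with a median of -0.01. The mitochondrial genes then had 46 of 65 above 0 with a median of 0.06. No test of the difference between the families could be made with 1 array a condition.

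**Figure D4:**
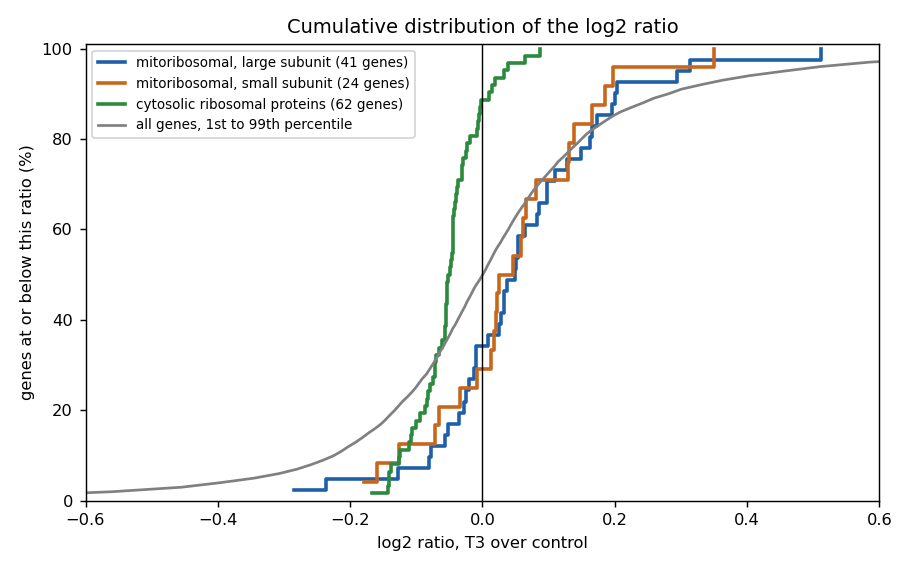
Cumulative percentage of genes by log2 ratio of T3 over control for the large and the small mitochondrial subunit, the cytosolic ribosomal proteins and all genes (grey, 1st to 99th percentile). The curves of both mitochondrial subunits run together and cross 0 below the curve of all genes, while 55 of 62 cytosolic genes lie below 0 as deposited. After quantile normalization 27 of these 62 lay above 0.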

How the data were processed

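For each probe set the authors deposited a MAS5 signal, an intensity called normalized in the column names. Affymetrix Expression Console is the software listed by the submitters' processing notes; neither a version nor a scaling target is stated in the labels. The trimmed means of the arrays were equal (100.04, with 2% left out at each end). Detection calls with a p-value per array, and a ratio that equalled the quotient of T3 and control signal, were also deposited by the authors. The series value table held the same intensities.

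Log2 ratios were computed here without a pseudocount in Python 3.11.15 with pandas 2.3.3, after leaving out 57 array controls. The code was tested on simulated data in which the changed probe sets carried no noise, so this checks the code only. A probe set counted as past a limit where it was present on the brighter array. Precision is limited by there being 1 array a condition. Symbols of the other lists were updated by gene number through RefSeq assembly GRCr8. The rule for named member genes took those past 1.5-fold, the 6 highest and 6 lowest ratios at or above the median signal, the 3 brightest of each subunit, those present on 1 array only, those whose probe sets passed 1.2-fold in opposite directions, and genes set by role, Mrpl58 among them. Of each list it took the 2 brightest, the extremes and those past 1.5-fold. Mrpl14, Mrpl48, Mrpl46, Mrpl47, the lower-case mrpl24 and mrpl9, the 5 promoters and the neighbouring genes were chosen after their values were seen. Members and lists were chosen with earlier results of these data known.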

Additional observations from a re-analysis of the deposited data

How the results depend on the processing

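Results were recomputed under 12 planned settings and 2 chosen after seeing the data, which added the lower-case symbols or left out genes under a signal of 100. No paired analysis was possible because each condition has 1 array. Over these settings the median log2 ratio of the member genes ran from 0.03 to 0.06, that of the large subunit from 0.03 to 0.06, that of the small subunit from 0.02 to 0.05, their difference from 0.00 to 0.03, and the share above 0 from 61.5% to 70.8%. Counts depended on dim probe sets. Without the detection filter, 4 members were past 1.5-fold higher, 1 was lower and 11 were past 1.2-fold higher, since absent probe sets are then counted. At or above the median signal, 3 were past 1.2-fold higher and 1 lower, and a pseudocount of 16 left 1 lower. After quantile normalization and after loess, 1 probe set, the dim one of Mrps24, was past 1.5-fold lower. Of 337 values of named member genes, 331 moved by less than the spread of like probe sets. The other 6 came with other probe sets. Mrpl12 and Mrpl17 went from near 0 to log2 ratios between -0.13 and -0.31. Mrpl48 had 0.50 by its probe set with the largest change. Many of the 331 could not move. The series value table held the same intensities, and the detection and signal limits kept each remaining gene's brightest probe set. Settings that changed only the choice of probe set left genes with a single probe set as they were. The cytosolic ribosomal proteins had a median of -0.05 to 0.00. Signal limits the dim members most, and the spread between cultures is unknown.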
